A study of Rattus norvegicus with 28 samples.

Results

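Periaxin (Prx), peripheral myelin protein 22 (Pmp22), peripheral myelin protein 2 (Pmp2), early growth response 2 (Egr2) and dystrophin related protein 2 (Drp2) were followed in rat spinal cord after contusion. These 5 genes were taken by symbol from the 35469 gene names of the array, and all 5 were found. The set was chosen by measured values of the same data, because Prx was higher at 2 weeks than at 1 week after injury, so that difference is given as a description with no test. The genes other than Prx were tested in every other comparison, also in those that use the samples of that choice. Prx was tested only between groups other than T1 and T2.

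The arrays were hybridised with labelled complementary RNA made from total RNA of adult female Sprague Dawley rats, 4 animals in each of 7 groups. T0 were uninjured cords, which the labels name sham. T1, T2, T4 and T8 were cords taken 1, 2, 4 and 8 weeks after a spinal cord injury (SCI), made by a 250 kdyn contusion at thoracic level 8. T1_NPC animals received neural progenitor cells (NPCs) in the cord right after the contusion and were taken at 1 week. T2_NPC animals received them 1 week after the contusion and were taken at 2 weeks, so both transplanted groups were taken 1 week after transplantation. The NPCs were grown from the spinal cord of adult rats injured 1 week before, and the immunosuppressant FK-506 was given from the day before transplantation onwards. The study's methods list it in the care of all animals, timed from the transplantation, with no timing of its own for animals without NPCs. They also say that control injured animals received an equal volume of medium without cells, with no group named. The tissue was 1.5 cm of cord with the epicentre. The labels exclude the dura mater in every group but T2_NPC, whose label does not mention it and names a shorter span of segments.

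In the central nervous system oligodendrocytes make myelin, whereas in peripheral nerves and spinal roots Schwann cells do. Egr2 is the transcription factor that switches on and maintains the myelin genes of Schwann cells. Pmp22 is a membrane protein of compact peripheral myelin and Pmp2 is a fatty acid binding protein on its inner face. Prx is a scaffold protein of the Schwann cell's outer membrane that binds Drp2, which in turn binds dystroglycan, a receptor for the basal lamina. Schwann cells are known to enter or arise in the injured cord and to myelinate axons there. Several of these genes are not restricted to Schwann cells: Egr2 is also used by macrophages and lymphocytes and Pmp22 by fibroblasts and other cells. In a tissue piece, more cells of a type and more RNA per cell cannot be told apart.

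Each gene was read by 1 probe of 60 bases except Drp2, which had 2. The start of the Prx probe and of both Drp2 probes is printed because the report turns on Prx and because the Drp2 probes disagreed. Each line holds the first 30 bases, 5′ to 3′, all in lower case because no part was singled out.
Prx probe A_42_P553918: catctcattgcctgacgtagaactcacatc
Drp2 probe A_43_P15409: atgatgtgggttcaaagagtcaggatgtca
Drp2 probe A_44_P517797: actggtttgtctatagtcttctgtgtccta
In the rat build rn4 of the array annotation, the Prx probe lies at chr1:82597427-82597486. The Drp2 probe A_43_P15409 lies at chrX:121929262-121929321 and A_44_P517797 at chrX:121910978-121911037, 18284 bases apart from start to start. The annotation files give the first of them to the Drp2 reference messenger RNA and the second to a partial sequence described as a splice variant. The Pmp22 probe lies at chr10:49335537-49335596, the Pmp2 probe at chr2:93569454-93569513 and the Egr2 probe at chr20:21883940-21883999 on the reverse strand. No annotation of that build was used here, so exons and introns are not given.

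Promoter windows of 300 bases, from 250 before to 50 after the gene's start, were read from RefSeq (build GRCr8) for 4 of the 5 genes, in 5 windows because Drp2 had 2. Pmp2 had none. They were searched on both strands for GCGNGGGCG (bound by the EGR family), AACAAAG (SOX family) and ATGCAAAT (POU octamer). Only the Egr2 window held a match, the octamer, whose first base lies 139 bases before the start. The letters are held by 1.78% of all 33469 windows for the octamer, 5.98% for the SOX and 4.98% for the EGR element. The Egr2 window, chr20:21054392-21054691 on the minus strand, is printed because its octamer is of the family of Pou3f1, whose values are given with those of Egr2. The octamer is in capitals.
Egr2 promoter: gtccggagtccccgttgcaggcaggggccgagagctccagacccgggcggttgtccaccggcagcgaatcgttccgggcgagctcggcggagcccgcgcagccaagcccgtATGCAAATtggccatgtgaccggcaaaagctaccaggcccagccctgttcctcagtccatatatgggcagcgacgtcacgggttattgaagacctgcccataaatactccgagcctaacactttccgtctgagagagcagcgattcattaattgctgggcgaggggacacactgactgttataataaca
A match is only a match of letters, and the 4 windows without one say nothing of the factors.

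The study's data were deposited as scanner outputs and as a table of log2 values, and for 16 of the 28 arrays these forms name different samples. The log2 table was used here. The scanner outputs were tied to its columns by identical rank order (Spearman correlation 1, with at most 0.993 for the next best). The 12 arrays on which both forms name the same sample are T0 replicates 1 and 3, T1 replicate 1, T2 replicates 2 and 3, T4 replicate 4, T8 replicates 2 and 4, and all of T2_NPC. The calls below were made with the naming of the log2 table and depend on it where they use the 16 disputed arrays. Under the samples named on the scanner outputs, none of the 5 genes passed the test against T0 in any group (limma). Of all 35469 features, 0 did at T1, T4, T8 and in T1_NPC, 1 at T2 and 831 in T2_NPC. The difference of Prx from T0 was then 2.00 at T4 (adjusted p = 0.343) and 2.70 at T8 (adjusted p = 0.355), and that of Egr2 1.58 at T1 (adjusted p = 0.689) and 2.81 at T8 (adjusted p = 0.349). Which naming is right was not settled here, so values on the undisputed arrays are given beside the main ones. On those arrays, where no choice is needed, Egr2 was 3.66 above T0 at T1 and 4.91 at T8. Prx was 5.25 above T0 at T4 and 5.63 at T8, with 1 array each at T1 and T4. These differences were near those of the whole log2 table. Of all features, 33.6% were called against T0 at T2 and 37.5% at T8 on the undisputed arrays (limma), with 2 arrays in each of these groups. Under the naming of the log2 table, the arrays of T0 to T8 were scanned in sessions 1 and 2. All 8 transplanted arrays were then scanned in session 3, T1_NPC on 1 slide and T2_NPC on another. With that naming, every comparison of a transplanted with another group is also a comparison of scan sessions, and T2_NPC against T1_NPC one of slides, which cannot be told apart. Under the naming of the scanner outputs, T1_NPC was scanned in session 2, and session 3 also held arrays of T0, T1, T4 and T8. Between 74.5% and 82.7% of spots were well above background on an array, and all 6 probes of the 5 genes were so on all 28 arrays. The markers of neurons, oligodendrocytes and astrocytes found on the array were above background on T0 arrays. All values below are log2 normalized values, and a difference of 1 is a 2-fold change.

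**Figure D1:**
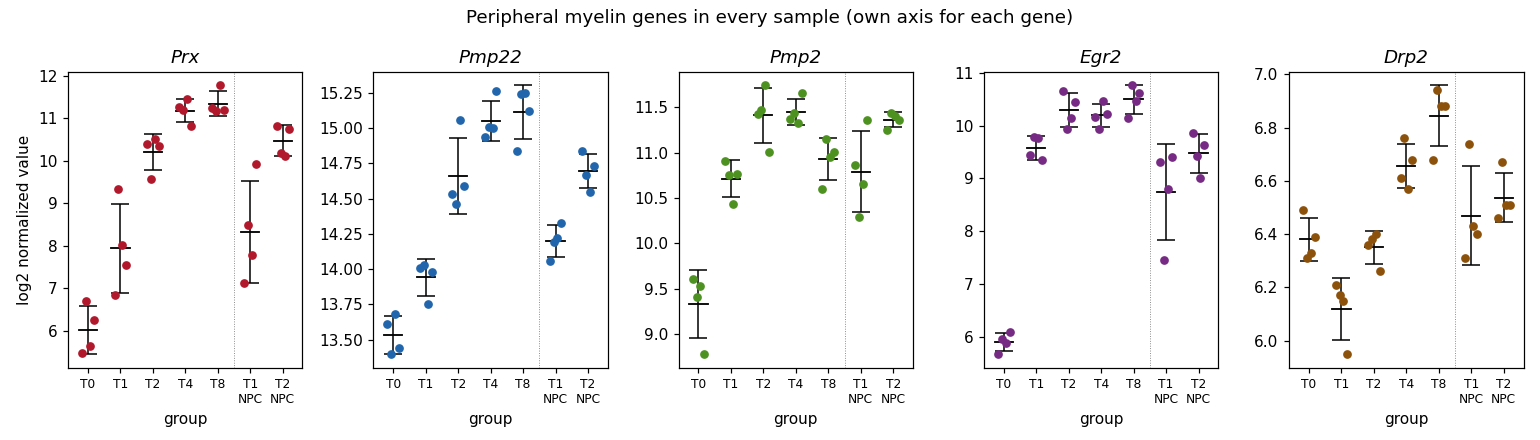
Log2 normalized value (y axis, a separate axis for each gene) of Prx, Pmp22, Pmp2, Egr2 and Drp2 in each of the 28 samples (points) by group (x axis), with the group mean (line) and ± 1 SD (bar, n = 4). Prx lay between 5.47 and 6.70 in T0 and between 11.17 and 11.78 in T8, and Egr2 was above 9 in every T1 sample against at most 6.09 in T0.

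Egr2, the regulator, was already high at the first time point. Its value in T0 was 5.68, 5.96, 5.89 and 6.09 in replicates 1 to 4, and in T1 it was 9.44, 9.78, 9.76 and 9.34. No T1 sample was near the T0 range. T2 samples read 10.65, 9.93, 10.14 and 10.45, T4 samples 10.17, 9.94, 10.47 and 10.21, and T8 samples 10.14, 10.76, 10.46 and 10.62. The 3 later groups overlapped with each other, so their order is within the spread, whereas T4, the lowest of them by mean, did not overlap T1. The difference from T0 was 3.68 ± 0.29 (standard error) at T1, which is 12.8-fold (limma, adjusted p = 4.57e-10). It was 4.39 at T2 (adjusted p = 3.08e-11), 4.29 at T4 (adjusted p = 5.56e-11) and 4.59 at T8 (24.1-fold, adjusted p = 1.75e-11), by the same fit and with the same standard error. The T0 mean of Egr2, 5.90, lay below the median value of the arrays, 7.25, so the size of these folds may depend on the background correction. On the undisputed arrays of T0 to T8, which are those of scan session 1, the differences from T0 were 3.66, 4.25, 4.43 and 4.91, against 3.60, 4.52, 4.17 and 4.27 within session 2.

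Of 12 genes known to regulate Egr2 or to work with it, all on the array, 5 rose and 3 fell at T1. At T8, 6 rose and 2 fell. The median difference of the list was -0.08 at T1 and 0.38 at T8, beside -0.10 and -0.04 over all features. Pou3f1, a POU factor that precedes Egr2 in Schwann cells, rose by 0.64 at T1 (limma, adjusted p = 0.0221), 2.08 at T2, 1.73 at T4 and 1.92 at T8. Nab2, a corepressor that binds EGR proteins, rose by 1.46 at T1 and 1.06 at T8, and Nfatc4 by 2.02 and 2.33. Sox10, which both Schwann cells and oligodendrocytes need, fell by 0.36 at T1 and by 0.40 at T8. Tead1 and Hdac1 were the others that rose at every time point.

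The 5 gene symbols whose profile was most like that of Egr2 over the 28 samples were Adam33, Plekha4, Aldh1a2, Mst1 and Nr1h3, with Pearson r from 0.957 to 0.971. Prx was not among them, with an r of 0.830 with Egr2. These correlations carry the difference between injured and uninjured cord. Within groups, as deviations from the group means, r between Prx and Egr2 was 0.248.

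Prx, the scaffold, was low in uninjured cord and reached its highest values late. It was 5.47, 6.70, 5.64 and 6.25 in T0 and 6.85, 9.34, 8.03 and 7.54 in T1. Every T1 sample was above every T0 sample, but replicate 1 by only a little, and T1 had a spread of 1.05 (SD) against 0.57 in T0. At T2 it was 10.39, 9.57, 10.51 and 10.34, all above T1. At T4 it was 11.26, 11.20, 11.45 and 10.81, and at T8 11.24, 11.17, 11.78 and 11.21. The SD fell to 0.27 at T4 and was 0.29 at T8.

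The mean difference from T0 was 1.92 at T1 and 4.19 at T2, and that between T2 and T1 was 2.27, or 4.81-fold. With normexp correction of the background they were 1.11, 2.89 and 1.78. All these values are descriptions, because the gene was chosen for its rise from T1 to T2. Leaving out 1 sample at a time gave 1.90 to 2.73 for T2 minus T1, the undisputed arrays, with a single T1 sample, gave 3.19, and session 2 gave 2.06. At T4 Prx was higher than T0 by 5.16 ± 0.47 (35.8-fold, limma, adjusted p = 8.21e-09) and at T8 by 5.33 ± 0.47 (40.3-fold, limma, adjusted p = 4.04e-09). Only 48 of the 35469 features had a larger difference at T8. The T0 mean of Prx, 6.02, lay below the median value of the arrays, 7.25, and normexp lowered the T1 and T2 differences. The size of the folds at T4 and T8 is therefore not firm. The undisputed arrays gave 5.25 at T4 and 5.63 at T8, and session 2 gave 4.83 and 5.03. From T2 to T4 the mean was higher by a further 0.97 without overlap of the groups, again untested. T8 did not pass the test against T4, with a difference of 0.17 and a 95% interval from -0.80 to 1.14 (limma, adjusted p = 1).

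**Figure D2:**
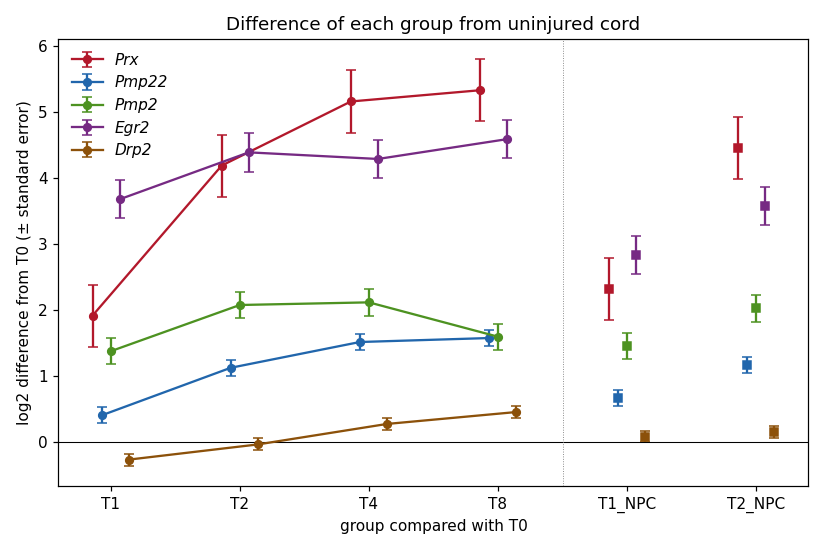
Log2 difference of each group from T0 (y axis, points, with ± 1 standard error of the linear model as bars) for the 5 genes, at 4 time points after injury (circles, joined) and in the transplanted groups (squares). Egr2 was 3.68 above T0 at T1, whereas Prx passed from 1.92 at T1 to 5.33 at T8, and Drp2 stayed within 0.46 of T0.

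The transplanted groups hold 1 and 2 weeks after injury in animals that were not used to choose the gene. Prx was 7.13, 8.50, 7.78 and 9.93 in T1_NPC and 10.82, 10.19, 10.12 and 10.76 in T2_NPC. No T2_NPC sample was as low as any T1_NPC sample, although T1_NPC replicate 4 came near. The difference was 2.14 ± 0.47, or 4.41-fold (limma, adjusted p = 0.00473). It was 2.67 without T1_NPC replicate 4 and 1.74 without T1_NPC replicate 1. The call was lost with the slide as a random block (adjusted p = 0.0573) and with only these 2 groups in the fit (adjusted p = 0.0914). All 4 T1_NPC arrays are disputed, and under the naming of the scanner outputs the difference was 0.20 (limma, adjusted p = 0.99). The time of transplantation and the slide also differ between these groups.

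Cyp27a1, Scn7a, Prps2 and Lect1 were among the genes most like Prx over the 28 samples, with Pearson r from 0.931 to 0.938. Of the other members, Pmp22 was the most like it (r = 0.927), and r was 0.783 with Pmp2 and 0.587 with Drp2. Within groups these values were 0.195, 0.0306 and 0.0135. All samples shared their arrays and normalization, and these correlations are descriptions without a test.

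Claudin 19 (Cldn19), of the junctions within Schwann cell myelin, was 0.15 from T0 at T1 (limma, adjusted p = 0.74) and rose by 1.64 at T2, 1.91 at T4 and 2.34 at T8. Gliomedin (Gldn), which Schwann cells present at nodes, rose by 2.78 at T1 and 2.97 at T8. Of the 3 Schwann cell markers listed beside the 5 genes, these 2 were found.

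Drp2, the partner of Prx at the outer membrane, changed little. The mean of its probes was 6.49, 6.31, 6.33 and 6.39 in T0 and 6.21, 6.17, 6.15 and 5.95 in T1. It was 6.36, 6.38, 6.40 and 6.26 in T2, 6.61, 6.76, 6.57 and 6.68 in T4, and 6.68, 6.94, 6.88 and 6.88 in T8. T1 lay below T0 and both T4 and T8 above it without overlap, and T2 overlapped T0. The difference from T0 was -0.26 ± 0.09 at T1 (limma, adjusted p = 0.0285), 0.28 at T4 (limma, adjusted p = 0.0231) and 0.46 at T8 (1.38-fold, limma, adjusted p = 0.000314). The calls at T1 and T4 rest on single samples: each was lost when any of 3 samples was left out, T0 replicates 1 and 4 and T1 replicate 4 for T1, and T0 replicates 2 and 3 and T4 replicate 2 for T4. With only the brighter probe, T1 was 0.07 from T0. The undisputed arrays gave -0.20, 0.28 and 0.50, and the calls at T1 and T4 were lost there (limma, adjusted p = 0.3 and 0.16). At T1 the call was also lost with normexp correction (-0.09, adjusted p = 0.0939) and with only these groups in the fit (-0.26, adjusted p = 0.0791).

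The mean hid a disagreement between the probes whose sequences are printed above. Probe A_43_P15409, of the reference messenger RNA, was 6.16, 6.36, 5.94 and 6.38 in T0, 7.22, 7.40, 7.30 and 6.62 in T4, and 7.35, 7.18, 7.48 and 7.23 in T8. Probe A_44_P517797, of the partial sequence, was 6.82, 6.25, 6.72 and 6.41 in T0, 6.0, 6.11, 5.84 and 6.75 in T4, and 6.01, 6.70, 6.27 and 6.53 in T8. The first was higher in T4 and T8 than in T0 without overlap, and the second overlapped T0 at both times.

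In the fit over all 41012 probes, A_43_P15409 rose by 0.93 ± 0.15 at T4 (limma, adjusted p = 2.93e-05) and by 1.1 at T8 (2.15-fold, adjusted p = 2.69e-06). It also rose by 0.50 in T1_NPC (adjusted p = 0.00725) and by 0.75 in T2_NPC (adjusted p = 0.000209), and was 0.07 and 0.22 from T0 at T1 and T2. A_44_P517797 fell by 0.59 ± 0.19 at T1 (limma, adjusted p = 0.0155) and was -0.37 at T4 (adjusted p = 0.135) and -0.17 at T8 (adjusted p = 0.528). Of all probes, 17.9% rose at T4, 18.5% at T8, 23.6% in T1_NPC and 22.1% in T2_NPC, and 25.4% fell at T1. The gap between the probes within a sample, first minus second, was -0.34 ± 0.44 (SD) in T0 and 0.93 ± 0.41 in T8, n = 4 each. It was 0.48 ± 0.33 in T1_NPC and 0.85 ± 0.38 in T2_NPC. The gaps were compared with T0 in a two-sided exact permutation test, added after the disagreement was seen. With 4 samples against 4 its smallest possible p is 0.0286. The gaps of T8, T1_NPC and T2_NPC each had this p (exact permutation test, 0.0572 adjusted over the 6 comparisons). No gap passed a threshold of 0.05 after adjustment. The p of T8, T1_NPC and T2_NPC could go no lower, while T1, T2 and T4 had 0.0857, 0.171 and 0.0857 (exact permutation test). With so few samples the outcome says little of the disagreement, and the test is no independent support. The genes most like Drp2, Selenbp1, Prkcz, Coch, Rab3b and Clip4, had r from 0.837 to 0.869.

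**Figure D3:**
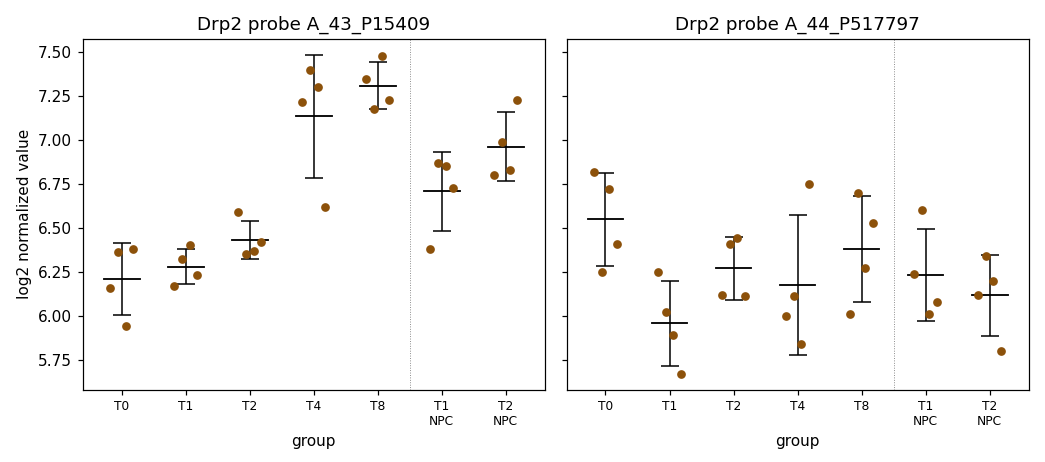
Log2 normalized value (y axis, shared) of the 2 Drp2 probes in each sample (points) by group (x axis), with the group mean (line) and ± 1 SD (bar, n = 4). Probe A_43_P15409 rose to between 7.18 and 7.48 in T8, above its T0 range of 5.94 to 6.38, while A_44_P517797 stayed within 6.01 to 6.70 in T8 against 6.25 to 6.82 in T0.

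Pmp22, of compact myelin, rose stepwise from a bright signal. It was 13.61, 13.40, 13.68 and 13.44 in T0, 14.01, 14.03, 13.75 and 13.98 in T1, and 14.53, 14.46, 15.06 and 14.59 in T2. It was 14.94, 15.01, 15.0 and 15.26 in T4 and 14.84, 15.24, 15.25 and 15.12 in T8. Each of T1 and T2 lay above the group before it, whereas T2 overlapped T4 and T4 overlapped T8. The difference from T0 was 0.41 ± 0.12 at T1 (1.33-fold, limma, adjusted p = 0.00919), 1.13 at T2 (adjusted p = 1.51e-07), 1.52 at T4 (adjusted p = 1.58e-09) and 1.58 at T8 (2.99-fold, adjusted p = 7.58e-10). The undisputed arrays gave 0.37, 1.12, 1.62 and 1.54. At T1 the call was lost there (adjusted p = 0.284) and with the scanner outputs scaled to their 75th percentile (0.27, adjusted p = 0.185). T2_NPC was above T1_NPC by 0.50 ± 0.12 (limma, adjusted p = 0.0124), a call that the 75th percentile, the slide as a random block and the fit of only these groups ended (adjusted p = 0.0522, 0.0868 and 0.0564). The genes most like Pmp22 were Cybrd1, Cxcl14, Prx, Scn7a and Cryaa, with r from 0.925 to 0.959.

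Pmp2, the fatty acid binding protein, peaked at T2 and T4. It was 9.61, 9.41, 9.53 and 8.78 in T0, 10.91, 10.75, 10.43 and 10.76 in T1, and 11.42, 11.47, 11.74 and 11.01 in T2. At T4 it was 11.37, 11.44, 11.33 and 11.65 and at T8 10.60, 11.15, 10.95 and 11.01, all below T4. The difference from T0 was 1.38 ± 0.20 at T1 (2.60-fold, limma, adjusted p = 4.31e-06), 2.08 at T2 (adjusted p = 1.40e-08), 2.12 at T4 (4.34-fold, adjusted p = 1.28e-08) and 1.60 at T8 (adjusted p = 7.17e-07). The undisputed arrays gave 1.34, 2.03, 2.09 and 1.51. T8 minus T4 was -0.52, with a 95% interval from -0.93 to -0.11, and did not pass the test over all features (limma, adjusted p = 0.741). T2_NPC minus T1_NPC was 0.57 (limma, adjusted p = 0.0668). It passed the test with normexp correction (0.58, adjusted p = 0.0407), with the scan session as a block (0.57, adjusted p = 0.0227), without T0 replicate 4 (0.57, adjusted p = 0.0429) and without T1_NPC replicate 4 (0.76, adjusted p = 0.0113). The genes most like Pmp2 were B2m, Gch1, Fabp5, Rhoh and Ccl4, with r from 0.913 to 0.945. B2m, of the major histocompatibility complex, and the chemokine gene Ccl4 belong to immune responses, and no myelin gene was among the 5.

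Against T0, of the 4 genes tested at T1, 3 rose (Egr2, Pmp2 and Pmp22) and 1 fell (Drp2), where 19.1% of all features rose and 25.1% fell. At T2 the same 3 rose and none of the 4 fell, against 17.7% and 22.2% of all features. All 5 rose at T4 (17.5% of features rose and 21% fell) and all 5 at T8 (18.2% and 21.5%). In T1_NPC (22.8% and 29.9%) and in T2_NPC (21.2% and 26.5%) Prx, Pmp22, Pmp2 and Egr2 rose, with Drp2 at 0.09 and 0.16. The median over the 5 genes was 2.12 at T4 and 1.60 at T8, beside -0.06 and -0.04 over all features. None is given for T1 and T2, because Prx was chosen by its values there.

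Between successive time points few features of the array passed the test. From T2 to T4, none of the 4 genes tested did (limma), where 0.0761% of features did, although unadjusted p was under 0.05 for 2 of them. These were Pmp22 (0.39, adjusted p = 0.294) and Drp2 (0.30, adjusted p = 0.281). From T4 to T8 none of the 5 did, where 0.0902% of features did, and unadjusted p was under 0.05 for 1, Pmp2. With T2_NPC against T1_NPC, 2 of the 5 rose (Prx and Pmp22) and 10.1% of features changed.

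Transplantation was compared with the injured cord of the same week. Under the log2 table's naming Egr2 was lower in both transplanted groups by mean, and under that of the scanner outputs it was higher, by 1.47 in T1_NPC and 0.54 in T2_NPC (limma, adjusted p = 1 and 0.822). It was 9.32, 7.45, 8.81 and 9.41 in T1_NPC and 9.86, 9.42, 9.0 and 9.64 in T2_NPC. All T2_NPC samples lay below all T2 samples, while T1_NPC overlapped T1. All T2_NPC arrays are undisputed, and they also lay below the undisputed T2 replicates 2 and 3, at 9.93 and 10.14. No T1_NPC array is undisputed. The difference was -0.83 ± 0.29 in T1_NPC (limma, adjusted p = 0.0618) and -0.81 ± 0.29 in T2_NPC (limma, adjusted p = 0.0796), neither past the threshold. T1_NPC replicate 2, the lowest, is also the array least like any other (its next best Spearman correlation is 0.979). Without it the T1_NPC difference was -0.40, and the T2_NPC difference, still -0.81, passed the test (adjusted p = 0.00809). Without T1_NPC replicate 1 or 4 the T1_NPC difference was -1.03 or -1.06 and passed it (adjusted p = 0.0272 and 0.0229), as did -0.85 with the 75th percentile (adjusted p = 0.0488).

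Pmp22, Pmp2 and Prx were compared in the same way. Pmp22 was 14.06, 14.19, 14.22 and 14.33 in T1_NPC, and 14.84, 14.67, 14.55 and 14.73 in T2_NPC, with differences of 0.26 (95% interval 0.00 to 0.51, limma, adjusted p = 0.19) and 0.04 (-0.22 to 0.29). T1_NPC did not overlap T1, and with normexp correction its difference was 0.44 and passed the test (limma, adjusted p = 0.0256). Pmp2 was 10.86, 10.29, 10.65 and 11.36 in T1_NPC, and 11.25, 11.44, 11.40 and 11.36 in T2_NPC. Its differences were 0.08 (-0.33 to 0.49) and -0.04 (-0.45 to 0.36). For Prx they were 0.39 and 0.27, with overlap and without a test.

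Drp2 was 6.31, 6.74, 6.43 and 6.40 in T1_NPC and 6.46, 6.67, 6.51 and 6.51 in T2_NPC. It was above T1 by 0.35 ± 0.09 in T1_NPC (limma, adjusted p = 0.0177) and above T2 by 0.19 in T2_NPC (limma, adjusted p = 0.23). The T1_NPC call was lost without T1 replicate 4 (0.29) or T1_NPC replicate 2 (0.26), with only the brighter probe (0.43, adjusted p = 0.0638), with the slide as a random block (0.34, adjusted p = 0.0606), with only these groups in the fit (0.35, adjusted p = 0.197) and with normexp correction (0.07, adjusted p = 0.315). Under the naming of the scanner outputs it was 0.00 (adjusted p = 1). For probe A_43_P15409 alone the T2_NPC difference was 0.53 ± 0.15 (limma, adjusted p = 0.0265), where 5.31% of probes rose. Of the 4 genes tested, 1 was called in T1_NPC, where 11.9% of features were, and none in T2_NPC (limma), where 9.47% were and 1 of the 4 had an unadjusted p under 0.05. The difference between the transplantation effects at 1 and 2 weeks was called for none of the 4 (limma, none with an unadjusted p under 0.05), beside 0.299% of features, and the intervals leave room for differences of some size.

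Other genes of peripheral myelin and nodes did not move as a group. Of 11 listed, 10 were found, with 2 higher and 3 lower than T0 at T1. At T2 it was 3 in each direction. For T4 the counts were 3 higher and 1 lower, and for T8 3 higher and 4 lower. Those that rose were Gldn and Ncam1, a cell adhesion gene, joined by Cldn19 from T2. Those that fell at T8 were Gjb1, Mal, Mbp and Mag, all of which oligodendrocytes also express. The median difference was -0.25 at T1 and -0.01 at T8.

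Of 14 genes of the dystroglycan complex, laminins and integrins that link a Schwann cell to its basal lamina, 13 were found. At T1, 10 rose and 1 fell, and at T8 12 rose and none fell, with medians of 1.17 and 1.39. Lamb1, a laminin chain, rose by 3.42 at T1 and 2.63 at T8, and Lama2, the laminin chain of Schwann cell basal lamina, by 2.00 and 2.25. Integrin beta 4 (Itgb4), a laminin receptor, rose by 1.17 at T1, 2.49 at T2 and 3.44 at T8, and Dag1, which encodes dystroglycan, by 0.68 at T8. T2_NPC was above T1_NPC by 1.99 for Itgb4 (limma, adjusted p = 0.00381). Of the 13 genes found, only 2 were called in that comparison, both higher in T2_NPC, with a median of 0.16, where 10.1% of all features were called.

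Of 14 genes of immature and repair Schwann cells, 5 rose and 4 fell at T1, and 6 and 4 at T8. Of all features, 19.1% rose and 25.1% fell at T1, and 18.2% and 21.5% at T8. The list did not move as a group at T1, with a median of -0.02 there and 0.36 at T8, beside -0.10 and -0.04 over all features. Among those that rose, the neurotrophin receptor Ngfr did so by 2.06 at T1 and 1.87 at T8, and Jun, the regulator of repair cells, by 0.88 and 0.95. Of 10 genes of neuregulin and related signalling, 4 rose and 3 fell at T1, and 3 and 2 at T8. Nrg1, the axonal growth factor for Schwann cells, fell by 0.93 at T1 and by 1.30 at T8, and its receptor gene Erbb3 was -0.03 and -0.28 from T0.

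Markers of other cells moved beside these genes. All 8 markers of microglia and macrophages rose at T1 and at T8, with a median of 3.25 and 2.42, and their summed level (log2 of the sum) went from 14.68 to 14.84 in T0 to 17.91 to 18.19 in T1. All 5 T cell markers rose at both times. Of 8 fibroblast and meninges markers, 6 rose and 1 fell at T1 and all 8 rose at T8, and the summed level was 16.42 to 16.85 in T0, 17.41 to 18.07 in T1 and 18.01 to 18.35 in T2. One of them, Igf2, was 0.85 from T0 at T1 (limma, adjusted p = 0.0609) and rose by 3.05 at T2, and T2_NPC was above T1_NPC by 2.28. Of the 8, only 2 were called between the transplanted groups, both higher in T2_NPC, with a median of 0.30, where 10.1% of all features were called. None of the 7 oligodendrocyte markers rose and 5 fell at T8, and 6 of 7 neuron markers fell. Of 6 sensory ganglion markers, 1 rose and 4 fell at T8. For 6 astrocyte markers these counts were 1 and 1, for 6 endothelial markers 2 and 0, and for 7 skeletal muscle markers 2 and 2. In T0, 1 T cell marker was below background on all 4 arrays and no other marker of these lists was. The part of these cells, and of root or meningeal tissue in the dissected piece, in the values of the 5 genes was not tested.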

How the data were processed

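Per the file headers, the arrays were read with Agilent Feature Extraction 10.7.1.1 (annotation build rn4), and the authors deposited the processed intensity of every spot with background correction. The authors also deposited a table of log2 values after quantile normalization between arrays, which was used here. Control spots were removed, the remaining 43379 spots were averaged per probe (41012) and probes per gene name (35469 features), with no filter on dim probes. All 28 samples entered 1 limma 3.58.1 fit (R 4.3.3) of the 7 group means with empirical Bayes moderation (2.26 prior degrees of freedom). A feature counted as called below 0.05 after Benjamini-Hochberg adjustment. The fit was tested on simulated data. With 4 arrays a group, their number limits the precision.

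The members and lists were chosen with earlier results of these data known. Named genes were the 5 members, list genes that were called or among the 4 largest, and for each member the 5 gene symbols with the highest Pearson correlation among those above background on at least 14 arrays. Lists were described by counts and medians: other peripheral myelin and node proteins, Egr2 regulators, the dystroglycan complex and basal lamina, neuregulin signalling, immature and repair Schwann cells, and cell type markers. Ncmap, Sgcb and Rbfox3 were not found by symbol, and some genes are not reported here and were left out of the lists. The test of the gap between the Drp2 probes was added after the values were seen. Correction with normexp used the median spot signal, since most scanner outputs used here held no mean signal. Same-numbered replicates did not deviate together (mean correlations -0.0168 to 0.0351), so they were not paired.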

Additional observations from a re-analysis of the deposited data

Results flagged for a closer look

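Of 49 sets of 4 samples (the 5 genes and the 2 Drp2 probes in each of 7 groups), 1 held a sample far from the other 3. Prx was 11.78 in T8 replicate 3, while the other 3 samples lay between 11.17 and 11.24, and the gap took up 0.877 of the range. Chance alone sets apart about 1 in 20 such sets. Without that sample the difference of Prx between T8 and T0 was 5.19.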

How the results depend on the processing

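With the scanner outputs under the samples named on them, where 16 arrays change sample, 0 members were called against T0 at T1, T2, T4, T8, in T1_NPC and in T2_NPC, and 0 in T1_NPC against T1 and in T2_NPC against T1_NPC. Of all features, 0% were called in T1_NPC against T1 and 0.245% in T2_NPC against T1_NPC. The shares against T0 are given above. The T2 minus T1 difference of Prx was then 1.07, and that of T2_NPC minus T1_NPC 0.20. Directions turned for Drp2 (T4 minus T0 -0.22, T1_NPC minus T0 -0.10, T2_NPC minus T0 0.00, T2 minus T1 -0.13, T1_NPC minus T1 0.00, difference of transplantation effects 0.23), for Egr2 (T1_NPC minus T1 1.47, T2_NPC minus T2 0.54, T2_NPC minus T1_NPC -0.79, T4 minus T2 0.93, difference of effects -0.93), for Pmp2 (T2_NPC minus T2 0.54) and for Pmp22 (difference of effects 0.14). With the 12 undisputed arrays, Prx differed by 3.19 between T2 and T1. Pmp22 turned there for T8 minus T4 (-0.08) and T2_NPC minus T2 (-0.06), and Egr2 for T4 minus T2 (0.17). With scaling to the 75th percentile, 2 members were called in T1_NPC against T1 and 1 in T2_NPC against T1_NPC. Of all features, 20.9% and 12.7% were called there, against 11.9% and 10.1% in the main fit. Pmp22 T2_NPC minus T2 turned to -0.16 and Drp2 T2 minus T0 to 0.05. With the brightest probe of each gene, 0 were called in T1_NPC against T1 and 1 in T2_NPC against T2, where 12.4% and 9.91% of features were. Drp2 then turned to 0.07 at T1, 0.22 at T2 and 0.10 for the difference of effects. With the slide as a random block, and with only the groups compared in the fit, 0 were called in T1_NPC against T1 and 0 in T2_NPC against T1_NPC. Fewer features were called there too: 6.3% and 2.54% with the slide block, and 3.45% and 2.48% with only the groups compared.

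Leaving out 1 sample at a time gave 0 to 2 members called in T1_NPC against T1, 0 to 1 in T2_NPC against T2, 2 to 4 in T2_NPC against T1_NPC, 3 to 4 at T1 and 4 to 5 at T4, and Prx T2 minus T1 from 1.90 to 2.73. The share of all features called in these comparisons ranged, in the same order, from 8.15% to 13.3%, 5.35% to 12.6%, 6.37% to 11.6%, 38.8% to 46.6% and 33.5% to 41%. Values that crossed 0 ranged from -0.03 to 0.17 for Pmp22 T2_NPC minus T2, for Pmp2 from -0.09 to 0.15 (T4 minus T2), -0.11 to 0.25 (T1_NPC minus T1), -0.18 to 0.07 (T2_NPC minus T2) and -0.29 to 0.07 (difference of effects), for Egr2 from -0.21 to 0.02 (T4 minus T2) and -0.41 to 0.25 (difference of effects), and for Drp2 from -0.05 to 0.01 (T2 minus T0). None of these passed the test. With the replicate number as a block, although the numbers do not pair the samples, Prx T2_NPC minus T1_NPC was 2.14 (limma, adjusted p = 0.00693), and the counts of members called were the same against T0 in every group. Quantile normalization of the matched scanner outputs, dim probes left out, slide or session as a fixed block, and eBayes with trend and robust moved no count of members by more than 1.5 times. With normexp correction of the median spot signal Prx was 1.11 above T0 at T1 and 2.89 at T2, Drp2 T1_NPC minus T1 was 0.07, and values near 0 turned: Pmp2 T4 minus T2 (-0.02) and T1_NPC minus T1 (-0.05), Drp2 T2 minus T0 (0.02), T1_NPC minus T0 (-0.02) and difference of effects (0.00), and Egr2 difference of effects (-0.07). The last was 0.00 and turned with the session as a fixed block. A fixed slide or session block could not be fitted for transplanted against other groups, and the undisputed arrays hold no T1_NPC sample. Causes of these changes were not tested. All 6 probes were well above background on all 28 arrays, so no difference is only a bound.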
